A study of Homo sapiens with 16 samples.

Results

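The genes described here are the AP-1 and EGR immediate-early transcription factors FOS, FOSB, FOSL1, FOSL2, JUN, JUNB, EGR1, EGR2, EGR3 and ATF3. Each gene was read at the transcript cluster (the array's set of probes for one gene) that is annotated to exactly 1 symbol and has the highest mean signal. By this rule 9 of the 10 genes were read, with 1 such cluster each, among 18377 genes in all. The signal of EGR2 was not analysed here. The tumours were grown from BT474, a line of human breast cancer cells in which ERBB2 (HER2) is amplified, which were placed in mammary fat pads of immunodeficient mice. The cells carried a lentiviral vector that doxycycline switches on and that expressed SHP2 miR1 or SHP2 miR2, hairpins against the tyrosine phosphatase SHP2, or a control hairpin, CTRL miR. Once tumours had developed, mice of all 3 groups drank doxycycline at 2 g per L until day 30, and RNA from each dissected tumour went onto an array of human genes. The groups held 7 SHP2 miR1, 3 SHP2 miR2 and 6 CTRL miR tumours, with 1 array each.

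Immediate-early genes are switched on within minutes of a growth factor or stress signal without new protein synthesis. Downstream of receptor tyrosine kinases such as HER2, the ERK kinases phosphorylate ternary complex factors, which together with the serum response factor SRF bind CArG boxes in promoters such as those of FOS and EGR1. FOS proteins (FOS, FOSB, FOSL1, FOSL2) pair with JUN proteins (JUN, JUNB) to form the transcription factor AP-1, ATF3 is a stress-induced partner of the same basic leucine zipper class, and EGR proteins are zinc finger factors that bind GC-rich sites. SHP2 lies between the receptors and RAS in this pathway, and handling or cooling of tissue also induces the same genes.

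The promoters of the genes whose values differed most are shown for the response elements they carry. They are the 150 bases before the start of transcription, 5′ to 3′, from RefSeq on GRCh38.p14, and lie at chr14:75278678-75278827 for FOS, chr19:45467846-45467995 for FOSB, chr2:28392708-28392857 for FOSL2 and chr5:138465329-138465478 for EGR1, all on the plus strand. Capitals mark CArG boxes, TGACGT on either strand (the core of the cyclic AMP response element, read as ACGTCA on the other strand) and the TATA box letters TATAAA.
FOS: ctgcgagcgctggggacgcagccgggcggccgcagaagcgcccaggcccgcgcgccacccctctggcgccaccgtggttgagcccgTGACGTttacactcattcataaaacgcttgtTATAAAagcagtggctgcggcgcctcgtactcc
FOSB: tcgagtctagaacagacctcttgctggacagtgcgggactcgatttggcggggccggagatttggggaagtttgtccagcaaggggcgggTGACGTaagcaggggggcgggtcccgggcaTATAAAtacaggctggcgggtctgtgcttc
FOSL2: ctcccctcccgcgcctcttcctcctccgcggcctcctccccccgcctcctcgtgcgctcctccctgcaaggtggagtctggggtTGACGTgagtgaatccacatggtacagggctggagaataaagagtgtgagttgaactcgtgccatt
EGR1: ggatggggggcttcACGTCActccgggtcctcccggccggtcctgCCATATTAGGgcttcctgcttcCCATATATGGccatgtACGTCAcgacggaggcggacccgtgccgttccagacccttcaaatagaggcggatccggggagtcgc
FOS, FOSB and FOSL2 each held 1 TGACGT, starting 64, 60 and 66 bases upstream, and FOS and FOSB also held TATAAA, starting 33 and 30 bases upstream. EGR1 held 2 CArG boxes, starting 105 and 83 bases upstream, and TGACGT at 136 and 67 bases upstream. In the wider window of 250 bases, a CArG box was present in 1.16% of 35116 RefSeq promoters, TGACGT in 7.1% and TATAAA in 10.7%, counting both strands. FOS, FOSB and FOSL2 held no CArG box in this window, and bases farther upstream were not searched. Within the same window EGR1 held 1 match to GCGNGGGCG, the EGR site itself, which 8.41% of promoters share. JUNB held TATAAA starting 31 bases upstream, and the searched letters, which also included TGACGTCA (1.65%) and the AP-1 site TGANTCA (6.57%), were not in this window of JUN. At 1 of its transcription starts EGR2 held a CArG box, starting 71 bases upstream, and TGACGT at 55 bases upstream. ATF3 held TATAAA starting 230 bases upstream of 1 of its starts. A match in a promoter is a description of its letters.

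Values are log2 signals, and the medians of the 16 arrays lay between 5.21 and 5.41. PTPN11, which encodes SHP2, was at 6.59 to 7.18 in SHP2 miR1, 6.34 to 6.53 in SHP2 miR2 and 8.23 to 8.61 in CTRL miR tumours. The control tumours were not alike: CTRL miR 1, 3, 4 and 6 expressed the insulin receptor adaptor IRS4 (7.14 to 8.29), whereas CTRL miR 2 and 5 (3.16 and 3.77) lay within the range of the knockdown tumours (2.97 to 3.91). The arrays also fell into 2 sets by the mean of 5 noncoding RNAs (SNORA65, RMRP, RPPH1, RNU4-1 and RNU4-2). Set A (CTRL miR 1 to 3 and SHP2 miR1 1 to 4, 7 arrays) had 8.19 to 8.39 and set B (9 arrays, with all 3 SHP2 miR2 tumours) 6.81 to 7.21. The SD of all signals on an array was smallest for SHP2 miR2 1 and 3 (1.89 each) and 1.95 to 2.07 elsewhere. The labels do not tie tumours to animals, so p-values measure the spread between these tumours. In RNA of whole tumours, fewer cells of a type and less RNA per cell cannot be told apart.

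No AP-1 or EGR gene passed the test for both hairpins against the control, the first comparison the design implies. With equal weight on SHP2 miR1 and SHP2 miR2, 0 of 9 genes were called (limma, adjusted p under 0.05 over all genes), where 18.6% of all genes were. At an unadjusted p under 0.05 the count was also 0 of 9, against 33.9% of all genes. The differences lay between -0.26 for ATF3 and 0.23 for FOSL2, with adjusted p from 0.198 to 0.470. Their median was 0.15, beside 0.03 for all genes. The hairpins taken one at a time differed: with SHP2 miR2 2 of 9 genes were called, FOS and FOSB, both higher, where 30% of all genes were called and 11.8% were higher. With SHP2 miR1 0 of 9 were called, where 4.76% of all genes were, and 3 of 9 (FOSL2, EGR1 and ATF3) had an unadjusted p under 0.05, against 18.4% of all genes. Neither share of calls stood above that of all genes. Between the hairpins, SHP2 miR1 against SHP2 miR2, 3 of 9 genes were called, FOS and FOSB lower and FOSL2 higher, where 22.5% of all genes were called, 14.3% higher and 8.22% lower. For 0 of 9 genes did the range of SHP2 miR1 or of SHP2 miR2 tumours part fully from that of the controls, as it did for 1.3% and 17.8% of all genes. The SHP2 miR1 and SHP2 miR2 ranges parted for 3 of 9, FOS, FOSL1 and FOSL2, against 20.1% of all genes.

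**Figure D1:**
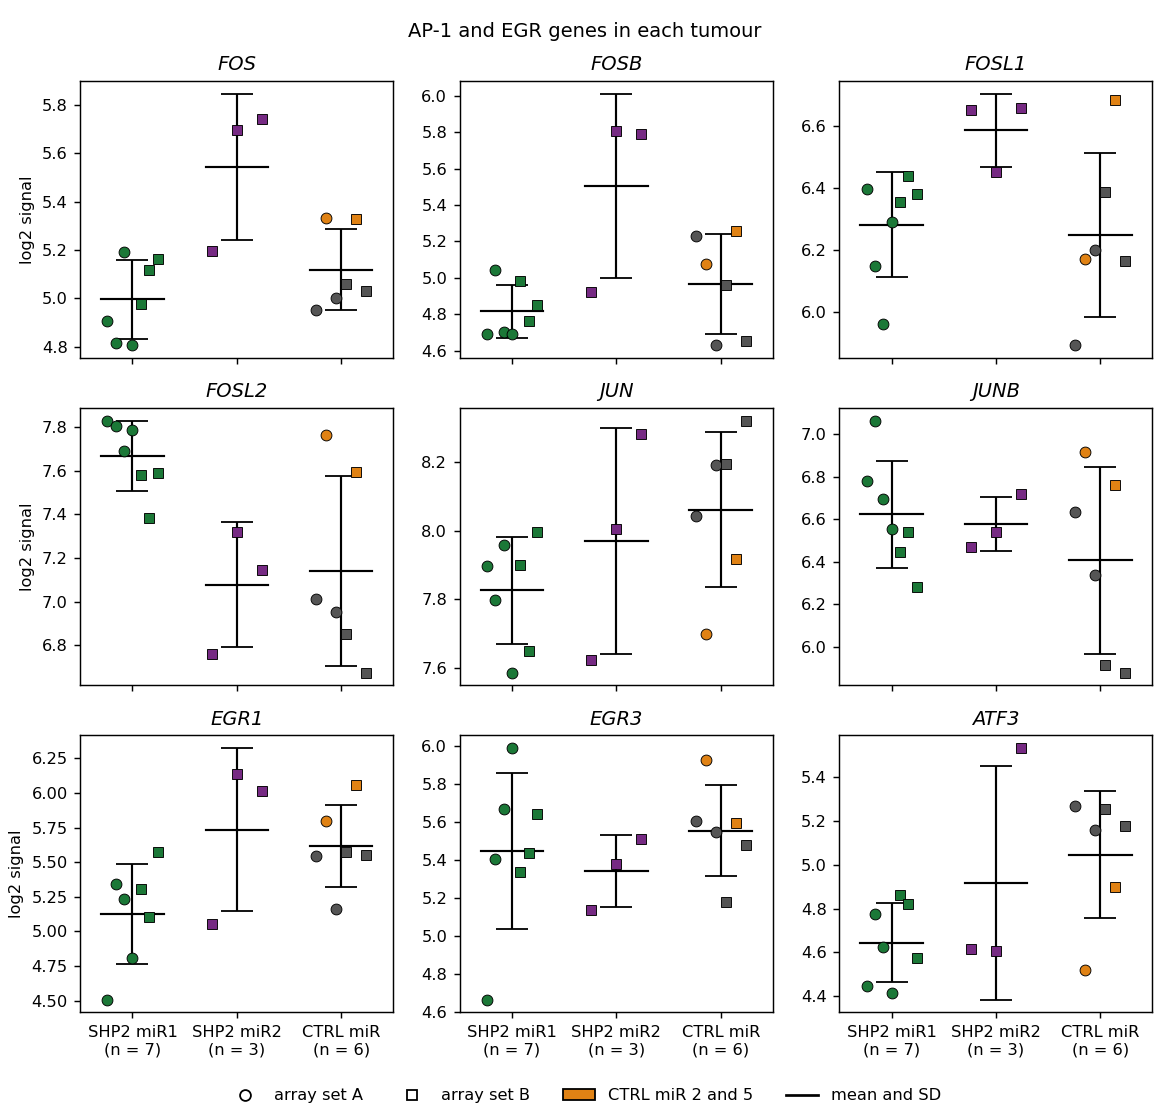
Log2 signal (vertical axes) of the 9 genes in each of 7 SHP2 miR1, 3 SHP2 miR2 and 6 CTRL miR tumours, 1 point a tumour, with the mean and SD of each group as lines. Circles are arrays of set A, squares arrays of set B, and orange points are CTRL miR 2 and 5. SHP2 miR2 2 and 3 are the highest points for FOS and FOSB, and CTRL miR 2 and 5 lie within the range of the SHP2 miR1 tumours for FOSL2.

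FOS, the founding FOS protein and the classical marker of immediate-early transcription (transcript cluster 7975779, chromosome 14), was higher with SHP2 miR2. Its signal was 5.20, 5.70 and 5.74 in SHP2 miR2 1, 2 and 3. It was 4.81 to 5.19 in SHP2 miR1, with a median of 4.98, and 4.95 to 5.33 in CTRL miR, with a median of 5.05. SHP2 miR2 2 and 3 exceeded every other tumour, SHP2 miR2 1 lay inside the control range, and the SHP2 miR1 and SHP2 miR2 ranges did not overlap. FOS rose by 0.43 ± 0.13 (SE, limma adjusted p = 0.0238) with SHP2 miR2, which is 1.34-fold (95% interval 1.11 to 1.63). With SHP2 miR1 the difference from CTRL miR was -0.12 (95% interval -0.34 to 0.10, adjusted p = 0.626). FOS was lower with SHP2 miR1 than with SHP2 miR2 by -0.55 ± 0.13 (SE, adjusted p = 0.00737). The mean was 4.996 ± 0.16 in SHP2 miR1, 5.54 ± 0.30 in SHP2 miR2 and 5.12 ± 0.17 in CTRL miR (SD, 7, 3 and 6 tumours), so the descending order was SHP2 miR2, CTRL miR, SHP2 miR1, and the last 2 neighbours differed by less than their spread.

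FOSB, the FOS relative that is induced by many of the same signals (cluster 8029693, chromosome 19), had the same arrangement. Its signal was 4.92, 5.81 and 5.79 in SHP2 miR2 1, 2 and 3, against 4.69 to 5.04 in SHP2 miR1 and 4.63 to 5.26 in CTRL miR tumours. Again SHP2 miR2 2 and 3 were above all other tumours and SHP2 miR2 1 was among them. The difference with SHP2 miR2 was 0.54 ± 0.18 (SE, adjusted p = 0.0299), or 1.45-fold (95% interval 1.12 to 1.88), and with SHP2 miR1 it was -0.15 (adjusted p = 0.657). Between the hairpins, SHP2 miR1 minus SHP2 miR2, it was -0.69 ± 0.17 (SE, adjusted p = 0.00993).

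The FOS and FOSB calls rested on 2 of 3 tumours, on the controls used and on the processing. Without SHP2 miR2 2 the differences from CTRL miR were 0.35 and 0.39 (adjusted p = 0.0790 and 0.130), and without SHP2 miR2 3 they were 0.33 and 0.40 (adjusted p = 0.153 and 0.190). Without SHP2 miR2 1 FOSB was at 0.83. Against CTRL miR 2 and 5 alone neither passed, at 0.21 for FOS and 0.34 for FOSB (adjusted p = 0.521 and 0.401). Within array set B, which holds 3 tumours of each group, FOS was at 0.40 and FOSB at 0.55 (adjusted p = 0.1002 and 0.119). The calls were also lost with quantile normalization (0.35 and 0.46, adjusted p = 0.0649 and 0.0743), with the array medians centred (0.34 and 0.45, adjusted p = 0.0659 and 0.0634) and with the array set as a block (0.37 and 0.52, adjusted p = 0.0576 and 0.0591). Without CTRL miR 1 FOS was at 0.39 (adjusted p = 0.0502), and without CTRL miR 3 or 6 FOSB was at 0.47 or 0.48 (adjusted p = 0.0628 and 0.0587). With array weights FOSB was at 0.42 (adjusted p = 0.0552). In FOS 13 of 16 values and in FOSB 14 of 16 lay below the median of their own array, and none of either lay below its lower quartile.

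Signals of macrophage marker genes, read for cells of the mouse host, were also higher with SHP2 miR2 as a group. The host is mouse and the array human, so mouse RNA enters these signals only as far as it binds human probes. Of 7 macrophage markers 6 were called higher with SHP2 miR2 (11.8% of all genes were), among them the lysozyme gene LYZ (0.89) and the leucocyte phosphatase gene PTPRC (0.66). Their mean signal was 5.22, 4.69 and 5.14 in SHP2 miR2 1, 2 and 3, against 4.50 to 4.69 in SHP2 miR1 and 4.26 to 4.69 in CTRL miR. Within the SHP2 miR2 tumours, tumour 1 had the highest marker mean and the lowest FOS and FOSB, and tumour 2 had the lowest marker mean. An order among 3 tumours cannot tell where the FOS and FOSB signal came from. Of 7 fibroblast markers 4 were called higher with SHP2 miR2 (11.8% of all genes), and their mean was 5.72 to 5.79, against 5.38 to 5.67 in SHP2 miR1 and 5.10 to 5.51 in CTRL miR. Medians of the other host lists were also higher with SHP2 miR2, beside 0.02 for all genes. They were 0.32 for lymphocyte, 0.44 for skeletal muscle, 0.20 for adipocyte and 0.19 for endothelial markers, with 1 gene called higher in each. The lower quartile of the array was 4.01, 3.87 and 4.04 in SHP2 miR2 1, 2 and 3, and 3.72 to 3.94 elsewhere. The part of host cells in the FOS and FOSB values was not tested, nor that of the array spread in the marker signals.

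**Figure D2:**
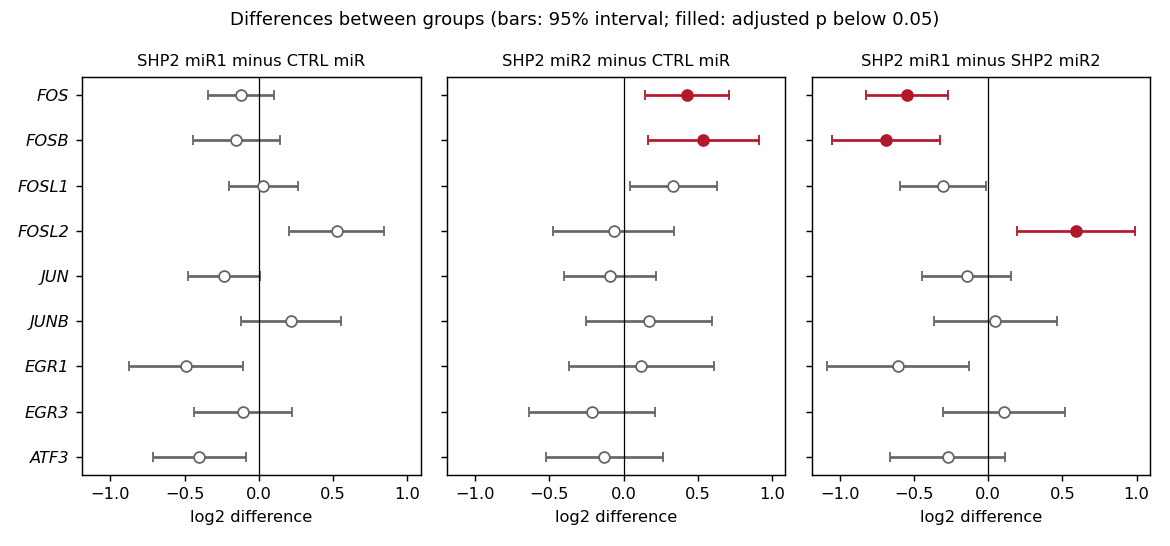
Log2 differences of the 9 genes (horizontal axes) for SHP2 miR1 minus CTRL miR, SHP2 miR2 minus CTRL miR and SHP2 miR1 minus SHP2 miR2, with 95% intervals as bars. Filled points have a limma adjusted p under 0.05: FOS and FOSB in the middle and right panels, and FOSL2 in the right panel.

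FOSL1, which encodes FRA-1, a FOS protein linked to invasive breast cancer cells (cluster 7949532, chromosome 11), was at 6.65, 6.45 and 6.66 in SHP2 miR2 tumours. It was 5.96 to 6.44 in SHP2 miR1 and 5.89 to 6.68 in CTRL miR tumours. The 3 SHP2 miR2 values were above all 7 SHP2 miR1 values, while CTRL miR 5 was the highest of the 16 tumours. The difference with SHP2 miR2 was 0.34 ± 0.14 (SE, adjusted p = 0.0750), with SHP2 miR1 it was 0.03 (adjusted p = 0.935), and between SHP2 miR1 and SHP2 miR2 it was -0.30 (adjusted p = 0.108). The difference with SHP2 miR2 passed with quantile normalization (0.45, adjusted p = 0.0376) and with array weights (0.40, adjusted p = 0.0169).

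The FOSL1 signal also moved with a property of the arrays. Over deviations of the 16 tumours from their group means, FOSL1 correlated with the array median (r = 0.83, adjusted permutation p = 0.0018, rho = 0.74, adjusted p = 0.0194) and, inversely, with the SD of all clusters of the array (r = -0.75, adjusted p = 0.016, rho = -0.58, adjusted p = 0.157). Without the 2 tumours farthest from the median the values were 0.84 and -0.80. P-values were adjusted over the 9 genes for each measure, and the other 8 had an adjusted p of at least 0.56. The genes whose deviations were most like those of FOSL1 over 16 tumours were FGF17 (r = 0.97), IZUMO1R (0.95), KCNMB2 (0.94), NHLRC4 (0.93) and SIRPA (0.92). The part of the array median and spread in the FOSL1 differences was not tested.

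FOSL2, which encodes FRA-2, the FOS protein of slower and longer induction (cluster 8041048, chromosome 2), had the highest values with SHP2 miR1. Its signal was 7.38 to 7.83 in SHP2 miR1, with a median of 7.69, and 6.76, 7.32 and 7.15 in SHP2 miR2. CTRL miR tumours 2 and 5 had 7.76 and 7.59, and CTRL miR 1, 3, 4 and 6 had 7.01, 6.95, 6.85 and 6.68. All 7 SHP2 miR1 tumours were thus above all 3 SHP2 miR2 tumours and above 4 of 6 controls, and CTRL miR 2 and 5 lay within their range. The difference of SHP2 miR1 from CTRL miR was 0.52 ± 0.15 (SE, adjusted p = 0.0543), and that of SHP2 miR2 was -0.06 (adjusted p = 0.812). FOSL2 was higher with SHP2 miR1 than with SHP2 miR2 by 0.59 ± 0.19 (SE, adjusted p = 0.0335), or 1.504-fold (95% interval 1.14 to 1.98).

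Whether FOSL2 passed against CTRL miR depended on the controls and on the model. With all 6 controls the difference with SHP2 miR1 passed with an intensity trend and robust prior (0.52, adjusted p = 0.0474), with array weights (0.69, adjusted p = 0.000557) and with the array set as a block (0.51, adjusted p = 0.0471). Against CTRL miR 1, 3, 4 and 6 alone FOSL2 was 0.79 higher with SHP2 miR1 (adjusted p = 2.57e-05), and against CTRL miR 2 and 5 alone the difference was -0.01 (adjusted p = 0.994). Leaving out CTRL miR 2 gave 0.65 (adjusted p = 0.00438) and leaving out CTRL miR 5 gave 0.61 (adjusted p = 0.0113). The difference between the hairpins depended on the arrays and their scaling. It missed the threshold with quantile normalization (0.42, adjusted p = 0.149), with the set as a block (0.46, adjusted p = 0.142) and in set B alone (0.44, adjusted p = 0.249). In SHP2 miR1 the set A arrays had FOSL2 at 7.69 to 7.83 and the set B arrays at 7.38 to 7.59. The call was also lost without SHP2 miR2 1 (0.43, adjusted p = 0.202) or 3 (0.62, adjusted p = 0.104), and without SHP2 miR1 1, 2, 3 or 4 (0.56 to 0.58, adjusted p from 0.0537 to 0.0571).

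JUN, a partner with which FOS proteins bind DNA (cluster 7916609, chromosome 1), was at 7.59 to 7.99 in SHP2 miR1, with a median of 7.90, and 7.62, 8.004 and 8.28 in SHP2 miR2. CTRL miR 2 and 5 had 7.70 and 7.92, below CTRL miR 1, 3, 4 and 6 with 8.04, 8.19, 8.19 and 8.32. Against all controls JUN differed by -0.24 with SHP2 miR1 (95% interval -0.48 to 0.01, adjusted p = 0.289) and by -0.09 with SHP2 miR2 (adjusted p = 0.645). JUNB, a JUN protein that activates more weakly and can oppose JUN (cluster 8026047, chromosome 19), was at 6.28 to 7.06 in SHP2 miR1 and 6.47, 6.54 and 6.72 in SHP2 miR2. The controls held the lowest values, with 6.92 and 6.76 in CTRL miR 2 and 5 and 6.63, 6.34, 5.91 and 5.88 in CTRL miR 1, 3, 4 and 6. The JUNB difference was 0.22 with SHP2 miR1 (adjusted p = 0.536) and 0.17 with SHP2 miR2 (adjusted p = 0.526). Neither JUN nor JUNB passed between the hairpins (-0.14 and 0.05, adjusted p = 0.461 and 0.877).

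EGR1, the zinc finger factor whose promoter holds the CArG boxes shown above (cluster 8108370, chromosome 5), had the widest range of the 9 genes, 1.63 log2 units over the 16 tumours. It was at 4.51 to 5.57 in SHP2 miR1, with a median of 5.23, and 5.06, 6.13 and 6.01 in SHP2 miR2. CTRL miR 2 and 5 had 5.80 and 6.05, and CTRL miR 1, 3, 4 and 6 had 5.54, 5.17, 5.58 and 5.55. As with FOS and FOSB, SHP2 miR2 2 and 3 were high and SHP2 miR2 1 was low, and CTRL miR 5 lay between tumours 2 and 3. The difference of SHP2 miR1 from CTRL miR was -0.49 ± 0.18 (SE, adjusted p = 0.143), that of SHP2 miR2 was 0.12 (adjusted p = 0.709), and SHP2 miR1 minus SHP2 miR2 was -0.61 ± 0.23 (SE, adjusted p = 0.0592). Without SHP2 miR2 1 the difference between the hairpins was -0.95 and passed (adjusted p = 0.0138). It ran from -0.95 to -0.41 with any 1 tumour left out, and it did not pass without SHP2 miR2 3 or in array set B alone.

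EGR3, which EGR1 and calcium signals induce in lymphocytes (cluster 8149720), was at 4.66 to 5.99 in SHP2 miR1, 5.14, 5.38 and 5.51 in SHP2 miR2 and 5.18 to 5.93 in CTRL miR. The SHP2 miR1 tumours held both the lowest and the highest of the 16 values. Its differences from CTRL miR were -0.11 with SHP2 miR1 and -0.21 with SHP2 miR2 (adjusted p = 0.813 and 0.421). ATF3 (cluster 7909610, chromosome 1) was at 4.41 to 4.86 in SHP2 miR1, 4.61, 4.6045 and 5.53 in SHP2 miR2, and 4.52 to 5.27 in CTRL miR. CTRL miR 1, 3, 4 and 6, at 5.16 to 5.27, were above every tumour but SHP2 miR2 3, and CTRL miR 2 and 5, at 4.52 and 4.90, were not. The ATF3 differences were -0.40 ± 0.15 with SHP2 miR1 (SE, adjusted p = 0.140) and -0.13 with SHP2 miR2 (adjusted p = 0.614).

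The control tumours parted over most of these genes. CTRL miR 2 and 5 lay above CTRL miR 1, 3, 4 and 6 without overlap for FOS, FOSL2, JUNB and EGR1, and below them for JUN and ATF3, which makes 6 of 9 genes where 35.6% of all genes did so. The tumours were divided by IRS4 and not by these genes, and no test was made between them. Against CTRL miR 1, 3, 4 and 6 alone, 4 of 9 genes were called with SHP2 miR1 (FOSL2 0.79 and JUNB 0.43 higher, JUN -0.36 and ATF3 -0.57 lower), where 18.8% of all genes were called. With SHP2 miR2 3 of 9 were called against these 4 controls, FOS (0.53), FOSB (0.64) and FOSL1 (0.43), all higher, where 45.9% of all genes were called. With equal weight on the hairpins 5 of 9 were called, FOSL1, FOSL2, JUN, JUNB and ATF3, where 35.5% of all genes were. Against CTRL miR 2 and 5 alone 0 of 9 were called with SHP2 miR1, SHP2 miR2 or both, where 0.136%, 4.37% and 0.751% of all genes were. With 2 controls and 1 estimate of the spread from fewer tumours, such a comparison is less precise.

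Heat shock and dissection stress genes set the same control tumours apart. The mean log2 signal of 10 such genes was 8.86 and 8.84 in CTRL miR 2 and 5, against 8.42 to 8.55 in CTRL miR 1, 3, 4 and 6. It was 8.50 to 8.68 in SHP2 miR1 and 8.43 to 8.56 in SHP2 miR2. The mean of 34 other immediate-early genes was 6.70 and 6.71 in CTRL miR 2 and 5, against 6.38 to 6.58 in CTRL miR 1, 3, 4 and 6. In these 2 control tumours FOS, FOSL2, JUNB and EGR1 lay above the other controls without overlap, and JUN and ATF3 lay below them. Of all genes, 35.6% parted the same tumours without overlap. SHP2 miR2 2 and 3, with the highest FOS and FOSB, had stress gene means of 8.56 and 8.43. The part of tissue handling was not tested.

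**Figure D3:**
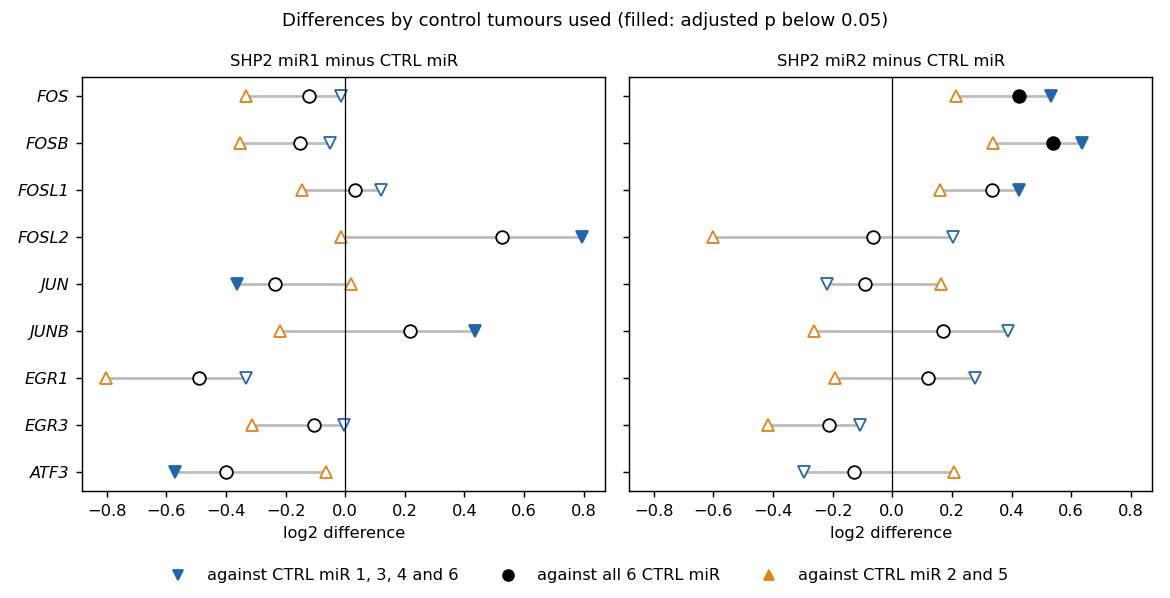
Log2 differences of the 9 genes (horizontal axes) from CTRL miR for SHP2 miR1 (left) and SHP2 miR2 (right), computed against CTRL miR 1, 3, 4 and 6 (downward triangles), all 6 controls (circles) and CTRL miR 2 and 5 (upward triangles). Filled symbols have an adjusted p under 0.05, which none of the upward triangles has. FOSL2 with SHP2 miR1 runs from 0.79 to -0.01 over these choices.

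No pair of the genes passed a test of correlation within the groups by Pearson's r. Over deviations of the 16 tumours from their group means, 26 of the 36 pairs of genes had a positive Pearson correlation, and 0 of 36 passed after adjustment over the pairs. The highest were FOSB with EGR1 (r = 0.79, permutation p = 0.00159, adjusted p = 0.0572), FOSL2 with JUNB (r = 0.78, adjusted p = 0.0736) and FOS with EGR1 (r = 0.75, adjusted p = 0.0736). By rank, FOSB with EGR1 (rho = 0.78) and FOSL2 with JUNB (rho = 0.78) passed, each with an adjusted p of 0.0337. Within array sets A and B the correlation was 0.67 and 0.92 for FOSB with EGR1, 0.69 and 0.80 for FOSL2 with JUNB, and 0.45 and 0.92 for FOS with EGR1. Without the 2 tumours farthest from the median (SHP2 miR2 2 and 3 for FOS and FOSB, CTRL miR 6 and SHP2 miR2 1 for FOSL2) the 3 values were 0.64, 0.73 and 0.61. With CTRL miR 2 and 5 centred apart from the other controls, a choice made after seeing the data, they were 0.75, 0.58 and 0.70, with adjusted p of 0.144, 0.277 and 0.357. Centring by array set as well as group, also chosen after seeing the data, gave r of 0.82, 0.76 and 0.73 (adjusted permutation p = 0.188, 0.190 and 0.188). FOSL1 had no correlation above 0.18 with another of the genes. The genes most like FOS over the 16 deviations were CPEB2, RD3, MUL1 and MIA3 (r = 0.87 each) and MIR22HG (r = 0.84).

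**Figure D4:**
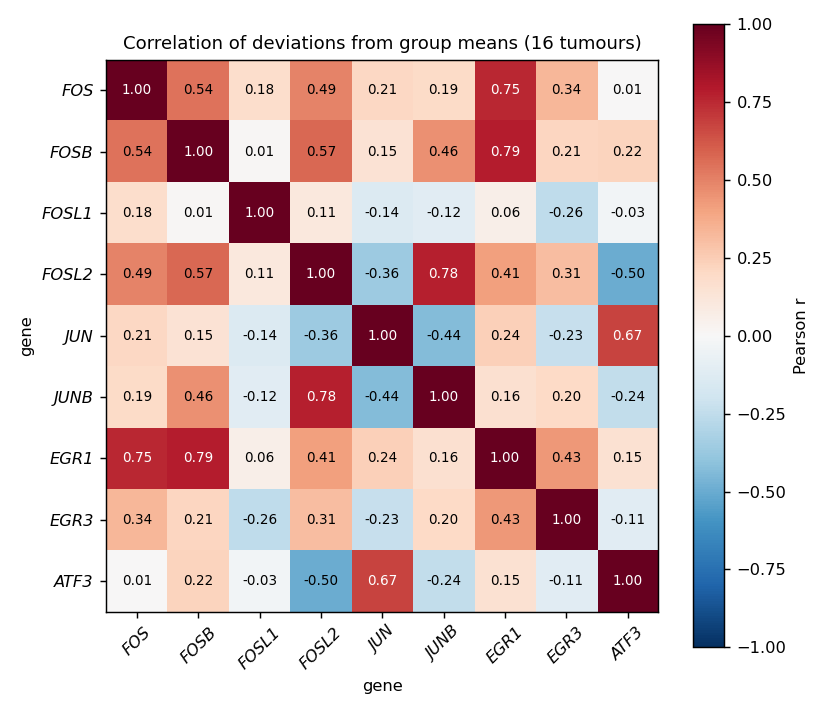
Pearson correlation (colour and printed value) between each pair of the 9 genes, over deviations of 16 tumours from the means of their groups. The pairs above 0.6 are FOS with EGR1, FOSB with EGR1, FOSL2 with JUNB and JUN with ATF3, while FOS with FOSB is at 0.54, and FOSL1 is near 0 with most genes.

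Other parts of the AP-1 and EGR system were read from lists of their partners, regulators and targets. The shares to set beside their counts are those of all genes, 4.76% called with SHP2 miR1 (18.4% at an unadjusted p under 0.05) and 30% with SHP2 miR2 (44.2% unadjusted). Of 14 further proteins that pair within AP-1, 0 were called with SHP2 miR1 (3 at an unadjusted p under 0.05) and 1 with SHP2 miR2 (7.14% of the list), the interferon-linked BATF2 (0.59, adjusted p = 0.0122). JUND, the JUN protein present in resting cells, had 0.22 with SHP2 miR1 and 0.29 with SHP2 miR2 (adjusted p = 0.189 and 0.0685). Of the 4 measured genes of the EGR family and its corepressors 0 were called with either hairpin (2 and 1 unadjusted). NAB1, a corepressor of EGR proteins, had -0.47 with SHP2 miR1 and -0.28 with SHP2 miR2 (adjusted p = 0.0533 and 0.213). NAB2, which EGR proteins induce and which then represses them, had 0.08 and -0.27 (adjusted p = 0.794 and 0.137), and EGR4 had 0.003 and 0.32 (adjusted p = 0.995 and 0.0663). SRF itself had 0.03 and -0.33 (adjusted p = 0.929 and 0.0748), and 0 of 7 genes of SRF and its ternary complex factors were called with either hairpin (2 and 2 unadjusted).

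Among the kinases upstream, 0 of 10 ERK cascade genes were called with SHP2 miR1 (0 unadjusted) and 1 with SHP2 miR2 (10% of the list, against 30% of all genes), MAP2K1, which encodes the ERK kinase MEK1 (-0.54, adjusted p = 0.00813). The list's median difference was 0.02 with SHP2 miR1 and -0.19 with SHP2 miR2, beside 0.02 for all genes in each. The JNK and p38 cascades, which phosphorylate JUN and ATF2, had 1 of 9 genes lower with SHP2 miR1 (11.1%, against 4.76% of all genes), and 3 lower and 1 higher with SHP2 miR2 (44.4%, against 30%). MAP3K5 (ASK1), the stress-activated kinase, fell with both hairpins, by 0.71 and 0.92 on the log2 scale (adjusted p = 0.00312 and 0.000204). MAP2K6 (-0.64) and MAP3K1 (-0.38) fell and the p38 kinase gene MAPK11 (0.60) rose with SHP2 miR2.

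The wider immediate-early programme did not move one way. Of 34 other immediate-early genes 0 were called with SHP2 miR1 (3 unadjusted), and with SHP2 miR2 4 were higher and 3 lower, 20.6% against 30% of all genes. Their median difference was 0.02 with each hairpin, the same as for all genes. With SHP2 miR2 the nuclear receptor gene NR4A3 (0.46) and the cytokine signalling inhibitor SOCS3 (0.89) rose, and MYC (-2.37) and the kinase gene SGK1 (-1.22) fell. Between the hairpins, SHP2 miR1 against SHP2 miR2, 6 of the 34 were higher and 3 lower, 26.5% against 22.5% of all genes. MYC (2.14, adjusted p = 5.08e-08) was among the higher, and NR4A3 (-0.59, adjusted p = 0.000859), SOCS3 (-0.84, adjusted p = 0.00106) and BTG1 (-0.80, adjusted p = 0.00271) were the lower.

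Genes that AP-1 and EGR1 are known to regulate moved in both directions. Of 17 AP-1 target genes, 0 were higher and 1 lower with SHP2 miR1, and 5 were higher and 2 lower with SHP2 miR2, 41.2% against 30% of all genes. The cytokine gene IL6 (1.09, adjusted p = 2.09e-05) and the cornified envelope gene IVL (1.22, adjusted p = 0.0118) rose with SHP2 miR2, and the cyclin gene CCND1 fell (-0.45, adjusted p = 0.0127). TIMP1, an inhibitor of matrix metalloproteinases, fell with each hairpin (-0.63 with SHP2 miR1 and -0.96 with SHP2 miR2, adjusted p = 0.0229 and 0.00165). Of 8 EGR1 targets, 1 was higher and 1 lower with SHP2 miR1 and 1 higher and 2 lower with SHP2 miR2 (25% and 37.5% of the list, against 4.76% and 30% of all genes). The growth factor gene PDGFA rose with both (0.55 and 0.63, adjusted p = 0.0133 and 0.00417), FLT1, a receptor for vascular endothelial growth factor, fell with SHP2 miR1 (-0.48, adjusted p = 0.0218), and GDF15 (-0.70) and the tissue factor gene F3 (-0.48) fell with SHP2 miR2. The epithelial origin of the RNA was checked with 8 luminal and HER2 markers, whose mean signal was 9.83 to 10.1 in SHP2 miR1, 9.87 to 10.1 in SHP2 miR2 and 9.33 to 9.98 in CTRL miR tumours. Members of this list moved apart: 1 of 8 was called with SHP2 miR1, ESR1 (0.58), and 3 of 8 with SHP2 miR2, ESR1 (1.11), GATA3 (1.01) and EPCAM (0.34), all higher. Between the hairpins 5 of 8 were called, the keratin genes KRT8 (0.41), KRT18 (0.49) and KRT19 (0.56) higher with SHP2 miR1 and ESR1 (-0.53) and GATA3 (-0.78) lower.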

How the data were processed

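Per the labels' protocols, TRIZOL was used to isolate RNA from each tumour, and 100 ng went onto an Affymetrix array of type HuGene-1_0-st-v1. The authors deposited 1 log2 value per transcript cluster and array, a scale inferred from the values. R 2.10 and oligo 1.8 are named in the submitters' processing notes; how background was corrected and arrays were normalized is not given in the sources used here. From 28869 clusters, those with exactly 1 symbol in the platform annotation (19310) were used, at the highest mean per gene, without a filter on low values (18377 genes). Signals of EGR2 and of genes of the lists that have no such cluster were not analysed here.

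The 3 groups (16 tumours, as labelled) were fitted by limma (version 3.58.1, R 4.3.3) with lmFit and then eBayes, leaving 13 residual degrees of freedom, and p-values were adjusted after Benjamini-Hochberg over all genes of a contrast. Called means an adjusted p under 0.05. Correlations used deviations from group means with 100000 permutations of tumours within groups, two-sided, adjusted over 36 pairs. The fit was tested on simulated data. Arrays have no read depth, and precision is limited by how many there were. Promoters and gene positions come from RefSeq tables of GRCh38.p14. Promoters of 8 of the 10 genes were searched, and those of FOSL1 and EGR3 were not. Plots were drawn with matplotlib 3.10.9.

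The genes, lists and tests were chosen with earlier results of these data known. Genes named beyond the 10, PTPN11, IRS4 and the 5 noncoding RNAs are at most 4 of each list with the smallest adjusted p in a contrast, JUND, NAB2, EGR4, SRF, and the 5 genes most like FOS and FOSL1. Alternatives were quantile normalization, median centring, leaving out the genes of lowest mean (keeping 12251), all clusters, the mean of a gene's clusters, array weights, a robust prior with an intensity trend, replicate and array set blocks, each set alone, CTRL miR 2 and 5 or 1, 3, 4 and 6 as controls, and each tumour left out. Centring the correlations by array set or control state was added after seeing the data.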

Additional observations from a re-analysis of the deposited data

Results flagged for a closer look

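The changes with SHP2 miR1 and with SHP2 miR2 were set against the same controls. Among the 9 genes and PTPN11 they differed in FOS, FOSB, FOSL2 and PTPN11, where 22.5% of all genes were called. In FOS the SHP2 miR1 change minus the SHP2 miR2 change was -0.55 (limma adjusted p = 0.00737), and in FOSB it was -0.69 (adjusted p = 0.00993). Both differences kept their direction and lost their call without SHP2 miR2 3 (-0.45 and -0.55, adjusted p = 0.0784 and 0.102) and within array set B (-0.46 and -0.64, adjusted p = 0.106 and 0.114). In FOSL2 it was 0.59 (adjusted p = 0.0335), with SHP2 miR1 in the higher place. In PTPN11, the targeted gene, it was 0.46 (adjusted p = 0.0115), so that more PTPN11 signal remained with SHP2 miR1, and without SHP2 miR2 3 the value was 0.40 (adjusted p = 0.0896). No tumour stood apart from the rest of its group for any of the 9 genes or PTPN11 by Dixon's test in the groups of 6 and 7 tumours (0 of 20 groups, where chance gives about 1 in 20).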

How the results depend on the processing

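Over 13 settings other than leaving out a tumour, 363 of 437 differences of the 9 genes kept their direction and their side of the threshold. PTPN11 stayed lower with each hairpin in all of them. Values with a changed sign are given next, and their cause was not tested. With SHP2 miR2 FOSL2 (-0.064 in the main analysis) was 0.097 with quantile normalization, 0.0051 with array weights, 0.052 with the array set as a block, 0.036 in set B and 0.20 against CTRL miR 1, 3, 4 and 6, JUN was 0.081 with quantile normalization, EGR1 was -0.028 with array weights and -0.027 with the set as a block, and JUNB was -0.024 with the replicate block. Between the hairpins JUNB was -0.086 with quantile normalization, -0.18 with the set as a block and -0.15 in set B. With SHP2 miR1 in set B FOSL1 was -0.020 and EGR3 0.054. Against CTRL miR 2 and 5, values for both hairpins turned to -0.059 for FOS, -0.0070 for FOSB, -0.31 for FOSL2, 0.090 for JUN, -0.24 for JUNB and 0.072 for ATF3. There SHP2 miR1 gave -0.15 for FOSL1, -0.013 for FOSL2, 0.018 for JUN and -0.22 for JUNB, and SHP2 miR2 gave 0.16 for JUN, -0.26 for JUNB, -0.19 for EGR1 and 0.21 for ATF3. Leaving out 1 tumour gave ranges across 0 with SHP2 miR2 for FOSL2 (-0.19 to 0.093), JUN (-0.25 to 0.082), EGR1 (-0.081 to 0.46) and ATF3 (-0.44 to 0.028), with SHP2 miR1 for FOSL1 (-0.040 to 0.12) and EGR3 (-0.20 to 0.025), and between the hairpins for JUN (-0.32 to 0.012), JUNB (-0.027 to 0.12) and ATF3 (-0.43 to 0.035). The number of the 9 genes called for both hairpins was 4 with array weights, 5 against CTRL miR 1, 3, 4 and 6, and 0 to 1 with a tumour left out. With SHP2 miR1 it was 1 with the intensity trend, 3 with array weights, 1 with the set as a block, 4 against CTRL miR 1, 3, 4 and 6, and 0 to 2 with a tumour left out. With SHP2 miR2 it was 1 with quantile normalization, 0 with median centring, 0 with the set as a block, 0 in set B, 0 against CTRL miR 2 and 5, and 0 to 3 with a tumour left out. Between the hairpins it was 0 in set B and 0 to 4 with a tumour left out. Genes called among all 18377 numbered 7047, 3371, 8868 and 7180 with array weights (both, SHP2 miR1, SHP2 miR2 and between the hairpins; 3414, 874, 5508 and 4136 in the main analysis), 306, 1, 2550 and 972 in set B, 138, 25 and 803 against CTRL miR 2 and 5, and 6531, 3454 and 8435 against CTRL miR 1, 3, 4 and 6. In set A SHP2 miR1 gave 10, and with the set as a block 2523 were called between the hairpins. With a tumour left out the counts ran from 2086 to 5706 for both, 233 to 1913 for SHP2 miR1, 2391 to 7739 for SHP2 miR2 and 1310 to 5923 between the hairpins. Median centring moved the median gene between the hairpins to 0.11, and the higher and lower calls to 1295 and 4146 with SHP2 miR2 (2163 and 3345 as deposited) and to 4031 and 737 between the hairpins (2626 and 1510). Of the 36 gene pairs 2 passed by Spearman's rho, 0 by Pearson's r.

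Same-numbered tumours did not all deviate together, and the numbers were not taken to pair the samples. Of 12 same-numbered pairs 5 had a correlation of deviations above 0.1, all among the 6 pairs of SHP2 miR1 with CTRL miR (0.21 to 0.37, 3 of them best matches, and -0.30 in the pair numbered 4). The 6 pairs with SHP2 miR2 lay between -0.42 and 0.022. Each of the 5 pairs above 0.1 lay within 1 array set. The pair numbered 4 and the 6 with SHP2 miR2 each spanned sets A and B. Pairing by number and array set cannot be told apart by this check. With the replicate block 2 of the 9 genes were called with SHP2 miR1, FOSL2 (0.54, adjusted p = 0.0376) and EGR1 (-0.56, adjusted p = 0.0367). Of all 18377 genes, 242 were called higher and 503 lower there. FOSL1 also passed with SHP2 miR2 (0.46, adjusted p = 0.0229), where 3444 of all genes were called higher and 3811 lower. Between the hairpins 5 of the 9 were called, as were 6773 of the 18377.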
